A study of Mus musculus with 15 samples.

Results

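Tetrahydrobiopterin is the pterin cofactor of the aromatic amino acid hydroxylases, the nitric oxide synthases and alkylglycerol monooxygenase. GTP cyclohydrolase (Gch1) starts its synthesis from GTP, pyruvoyltetrahydropterin synthase (Pts) and sepiapterin reductase (Spr) finish it, and pterin carbinolamine dehydratase (Pcbd1) and dihydropteridine reductase (Qdpr) regenerate it after use. The protein of Gchfr binds GTP cyclohydrolase and mediates its feedback inhibition by the cofactor and its stimulation by phenylalanine. These 6 genes, of 46078 in the count table, were described here in retinal pigment epithelium (RPE), the pigmented layer behind the photoreceptors. Gchfr was chosen by its measured counts, because it was higher in Mertk KO than in Mertk WT libraries, so its values in that comparison are given as a description with no test. The other 5 were taken for their place in the pathway.

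The 15 libraries came from RPE of female mice at postnatal day 14, with RNA taken 2 hours after light onset. Mertk KO and Mertk WT had 4 libraries each, and these mice carry no Bai1 transgene label. Bai1 Tg pos had 3 libraries and Bai1 Tg neg 4, both with wild-type Mertk. Mertk is a receptor tyrosine kinase used by the RPE to engulf photoreceptor outer segments, and Bai1 (Adgrb1) is an adhesion receptor for phosphatidylserine. All 15 share a strain label that joins c57Bl/6J with B6;129-Mertktm1Grl/J, which does not show whether the groups have the same genetic background. The sources used here do not give the promoter of the transgene, the cells in which it is active, or whether libraries came from separate animals. The spread that enters the p-values is therefore that among libraries and may be technical only.

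Totals ranged from 9591129 to 20024507 counted fragments per library, and 3 counts, taken as the limit for an undetected gene, equal 0.150 to 0.312 CPM (counts scaled to library size with TMM factors). All 8 RPE markers were detected in each group, with Rpe65 at a mean of at least 4563 CPM. Best1 was by far the lowest of the 8, at group means of 0.527 to 1.11 CPM, not far above that limit. Mertk itself was at 155 to 195.9 CPM in Mertk KO and, without overlap, at 233.3 to 261.9 CPM in Mertk WT. The exons removed by the allele are not given, so its remaining counts check the label only in part. Against its label, Bai1 Tg neg 4 had 143.5 CPM of Adgrb1, while the other Bai1 Tg neg libraries had at most 0.142 CPM, so the tests between the Bai1 groups are given with and without it. Summed rod photoreceptor markers (10 of 10 detected) stood at 822 to 3419 CPM in Mertk WT, 888 to 1475 CPM in Mertk KO, 195 to 435 CPM in Bai1 Tg neg and 254 to 739 CPM in Bai1 Tg pos. The Mertk and Bai1 libraries also differ in the first of 2 tag numbers in their labels (17 or 21 against 12), whose meaning is not given, so genotype set and tag cannot be told apart between them. No test was made between the 2 sets.

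Gchfr is a compact gene on chromosome 2 (119167773 to 119172390, plus strand, GRCm38), with 1 annotated transcript of 3 exons and 645 exon bases. Relative to the start of Mertk on the same chromosome, its start lies at -9.53 Mb. None of its exon bases is shared with another gene, which matters because the counting did not use strand. No transcript of another gene aligned to it at 90% identity over 150 bases or more. The sequences just before the starts of Gchfr and of Gch1, the enzyme it regulates, are shown because the pair acts in 1 step of the pathway and had unlike levels across the genotypes. Each run covers 235 bases, from 250 to 16 bases before the RefSeq start, 5′ to 3′ on the gene's strand, in GRCm38.p6. Capitals mark matches to the CCAAT box, the GC box GGGCGG, the E box CACGTG or the cAMP response element half-site TGACG, searched on both strands; no matches overlapped.
Gchfr, chr2:119167538-119167772, plus strand: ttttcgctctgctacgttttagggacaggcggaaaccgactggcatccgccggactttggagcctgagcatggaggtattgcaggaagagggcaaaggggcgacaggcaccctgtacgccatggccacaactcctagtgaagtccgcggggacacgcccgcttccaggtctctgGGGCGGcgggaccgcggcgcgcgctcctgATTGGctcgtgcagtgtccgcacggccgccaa
Gch1, chr14:47189429-47189663, minus strand: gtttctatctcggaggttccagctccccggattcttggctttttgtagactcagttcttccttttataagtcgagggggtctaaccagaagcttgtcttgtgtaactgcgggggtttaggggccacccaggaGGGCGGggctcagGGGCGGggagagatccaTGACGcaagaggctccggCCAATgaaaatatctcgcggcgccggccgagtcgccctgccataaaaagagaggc

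The Gchfr window held 1 CCAAT match, on the minus strand, and 1 GC box, at 64.7% G and C. The Gch1 window held 1 CCAAT match, 2 GC boxes and 1 TGACG match, at 57.0% G and C. The median over 32851 mouse promoter windows of this length was 51.9%. Of those windows, 32.6% held CCAAT, 30.6% GGGCGG, 16.3% TGACG and 5.49% CACGTG on either strand, and none of the 6 members held CACGTG. Of the remaining members, Qdpr held 2 CCAAT matches and 1 GC box, Spr 2 GC boxes, Pts 1 GC box and Pcbd1 no match to any of the 4.

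Gchfr transcripts were plentiful only by the standard of the Mertk KO group. The 4 Mertk KO libraries held 10.95, 12.1, 15.6 and 16.9 CPM (204, 180, 225 and 287 counts). The 4 Mertk WT libraries held 1.21, 0.327, 0.534 and 1.14 CPM (18, 6, 8 and 11 counts). Every Mertk KO library lay above every Mertk WT library. The fitted log2 fold change was 4.16 (SE 0.336), between means of 13.9 ± 2.82 CPM for Mertk KO and 0.804 ± 0.440 CPM for Mertk WT (SD, n = 4 each). Gchfr passed the filter on low counts through its Mertk KO libraries. In the fit of those 8 libraries 0.223% of 13447 genes passed an adjusted p of 0.05 (30 genes; 16 without Mertk KO 4), and the groups did not overlap for 3.52% (1.74% higher, 1.78% lower in Mertk KO). Nothing is read from these shares for Gchfr, since it was picked in this contrast. By first tag number, Mertk KO 1 to 3 (10.95 to 15.6 CPM) and Mertk WT 1 to 3 (0.327 to 1.21 CPM) share 17, and Mertk KO 4 (16.9 CPM) and Mertk WT 4 (1.14 CPM) share 21. Since these are the values that chose Gchfr, with 1 library a group at 21, nothing is read from this split. Summed endothelial markers (5 of 5 with a count in both groups) also separated the groups, at 12.2 to 17.5 CPM in Mertk WT but 7.02 to 10.9 CPM in Mertk KO. Most of each sum was Kdr (means of 9.85 CPM in Mertk WT and 6.42 CPM in Mertk KO) and Egfl7 (3.78 and 2.26 CPM). In Mertk KO the means of Pecam1, Cdh5 and Tek were 0.0788 to 0.231 CPM, within or below the range of the limit for an undetected gene. The part of these markers in the Gchfr difference was not tested. In these bulk libraries, more cells with a transcript and more transcript per cell cannot be told apart.

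The 7 Bai1 libraries, which the choice of Gchfr did not use, lay near the low level of Mertk WT. Bai1 Tg neg 1 to 4 held 0.539, 0.596, 0.781 and 0.549 CPM (7, 10, 11 and 11 counts). Bai1 Tg pos 2 and 3 held 0.476 and 0.374 CPM (8 and 7 counts), and Bai1 Tg pos 1 held no count, which allows up to 0.294 CPM. Gchfr was therefore at most 1.21 CPM in each of the 11 libraries outside Mertk KO. It was too low for the edgeR test between the Bai1 groups, with and without Bai1 Tg neg 4. The mean was 0.616 ± 0.112 CPM in Bai1 Tg neg (n = 4), 0.638 ± 0.126 CPM without that library (n = 3) and 0.283 ± 0.250 CPM in Bai1 Tg pos (n = 3). Mertk WT overlapped both Bai1 groups, while the 3 Bai1 Tg pos libraries lay below all Bai1 Tg neg libraries, on few counts, as did 3.41% of the genes tested. Gchfr was not among those genes, which have more counts, so the share is not a like comparison and nothing is read from the separation.

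**Figure D1:**
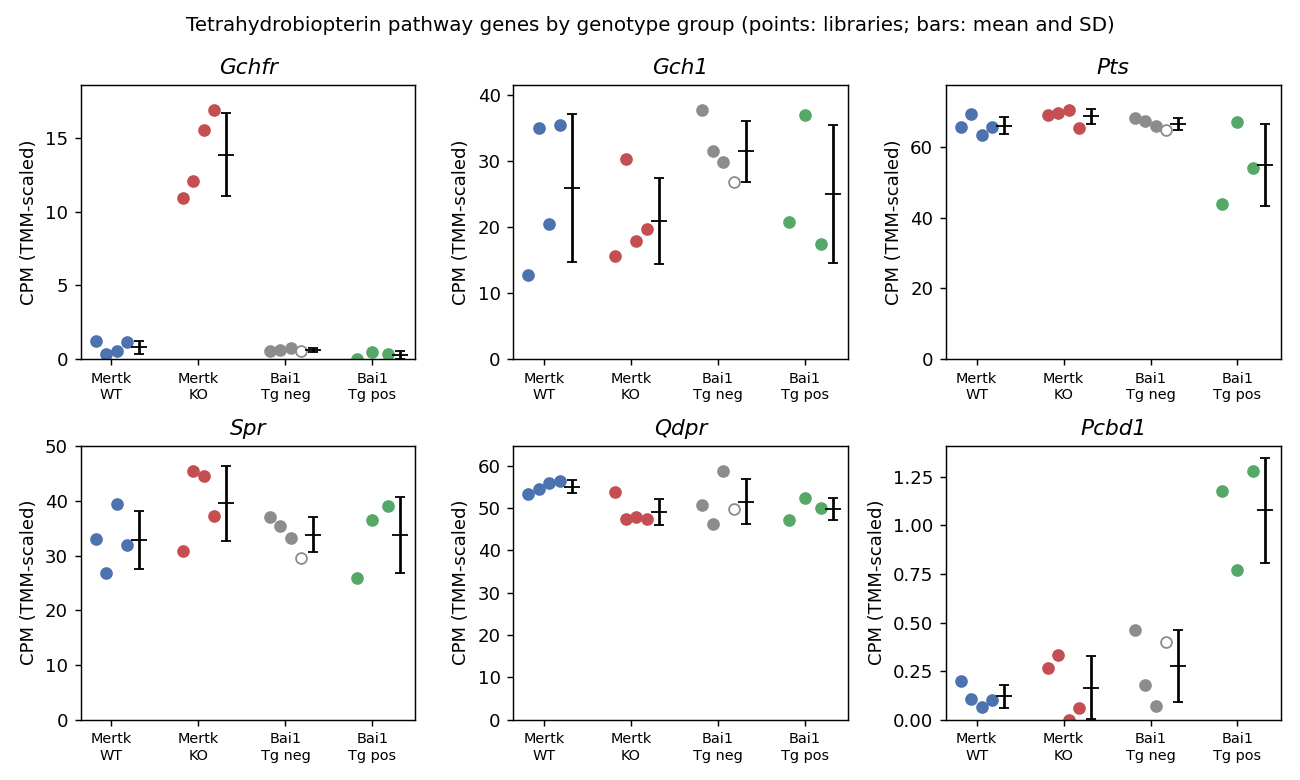
Level in CPM (y axis) of each of the 6 genes in the 4 genotype groups (x axis), in which each point is a library and bars show mean and SD; Bai1 Tg neg 4 is drawn open, and each panel has its own scale from 0. Gchfr stands at 10.95 to 16.9 CPM in Mertk KO and at most 1.21 CPM elsewhere, Pcbd1 is at most 1.28 CPM throughout, and Pts and Qdpr vary little in the Mertk libraries.

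The first enzyme of the pathway did not follow its regulator. Gch1 (chromosome 14, 47153895 to 47189413) was at 15.6, 30.4, 17.9 and 19.6 CPM in Mertk KO 1 to 4 and at 12.7, 35.0, 20.4 and 35.5 CPM in Mertk WT 1 to 4. The groups overlapped almost completely, and the Mertk WT libraries spanned the wider range. The log2 fold change was -0.31 (SE 0.357, edgeR adjusted p = 0.914). Gch1 was also uneven among the Bai1 libraries, at 26.8 to 37.7 CPM in Bai1 Tg neg and 17.4 to 37.0 CPM in Bai1 Tg pos, where the log2 fold change was -0.32 (SE 0.25, adjusted p = 0.958) and, leaving out Bai1 Tg neg 4, -0.39 (SE 0.267, adjusted p = 0.988). Over all 15 libraries its coefficient of variation was 32.9%, the highest of the 4 well-detected enzymes of the pathway, followed by Spr (16.4%), Pts (10.8%) and Qdpr (7.63%).

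Set against each other per kilobase of exon length, the regulator and its enzyme stood in a different order in Mertk KO than elsewhere. Gchfr stood at 17.0, 18.7, 24.1 and 26.2 CPM per kilobase in Mertk KO 1 to 4, where Gch1 stood at 5.63, 10.9, 6.46 and 7.07. The ratio of Gchfr to Gch1 was 3.02, 1.71, 3.74 and 3.71 in these libraries. In Mertk WT 1 to 4 the ratio was 0.410, 0.0401, 0.112 and 0.139, and across the 7 Bai1 libraries it ran from 0 to 0.113. Gchfr transcripts thus outnumbered Gch1 transcripts per length in each Mertk KO library and in none of the other 11. Since the Gch1 level did not differ by the test, this shift restates the Gchfr difference on a scale set by its partner, and it says nothing of protein.

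**Figure D2:**
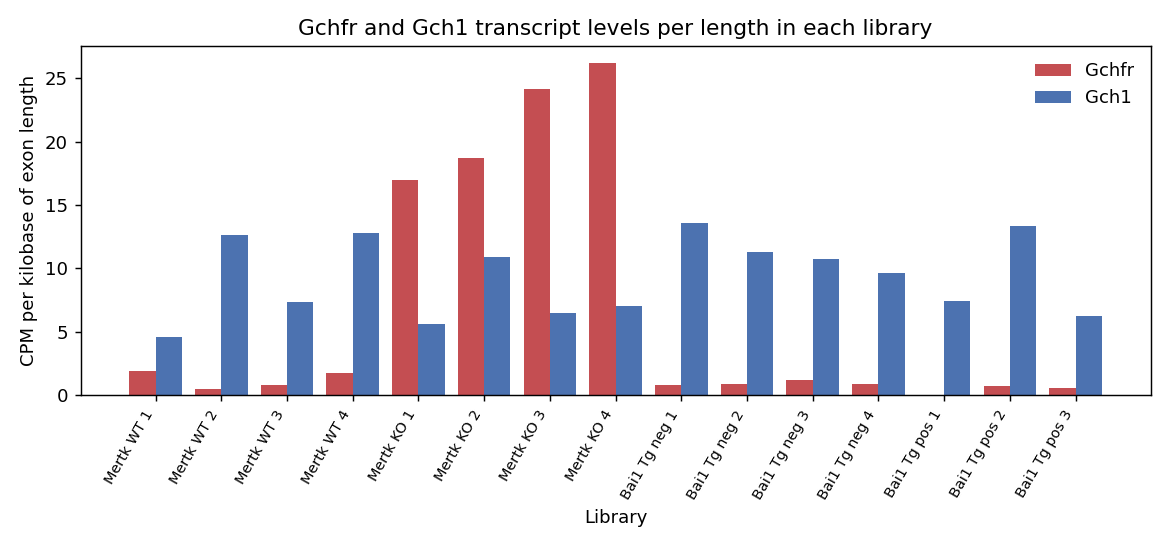
Level per kilobase of exon length (y axis, CPM per kilobase) of Gchfr and Gch1 in each of the 15 libraries (x axis). The Gchfr bar is the taller one in the 4 Mertk KO libraries, by 1.71 to 3.74 times, and the shorter one in the other 11.

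Neither of the next enzymes of synthesis passed the test. Pts (chromosome 9, 50521618 to 50528641), which converts the GTP cyclohydrolase product, was the most abundant member per length, with a median of 63.6 CPM per kilobase over the 15 libraries. It stood at 69.1, 69.6, 70.5 and 65.5 CPM in Mertk KO 1 to 4 and at 65.7, 69.3, 63.5 and 65.6 CPM in Mertk WT 1 to 4. These values overlapped and the log2 fold change was 0.05 (SE 0.0726, adjusted p = 0.934). Spr (chromosome 6, 85133678 to 85137766), the last enzyme of synthesis, was at 30.9, 45.5, 44.6 and 37.3 CPM in Mertk KO 1 to 4 and at 33.1, 26.8, 39.5 and 31.9 CPM in Mertk WT 1 to 4. Its log2 fold change was 0.26 (SE 0.147, adjusted p = 0.905), and Mertk KO 1 and Mertk KO 4 lay within the range of Mertk WT. A pseudogene, Spr-ps1, aligned to Spr at 90.2% identity over 603 bases and held 315 counts against 8159 for Spr, so a small part of the Spr count may be uncertain. Short stretches of Pts transcripts, of at most 226 bases, aligned to transcripts of 35 genes, and the Pts count may be uncertain to that extent. The transcripts are from GENCODE M21, where the coordinates of Pts, Spr and Pcbd1 differ from those of the count table. Whether the matched bases were among those counted was not tested.

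In the Bai1 set Pts was at 64.8 to 68.3 CPM in Bai1 Tg neg and at 43.8, 67.1 and 53.9 CPM in Bai1 Tg pos 1 to 3. A pair of the 3 Bai1 Tg pos libraries lay below all of Bai1 Tg neg, and the third lay inside its range. The log2 fold change was -0.27 (SE 0.115, adjusted p = 0.948; unadjusted p = 0.0359 from the same edgeR fit), and, leaving out Bai1 Tg neg 4, -0.28 (SE 0.13, adjusted p = 0.988; unadjusted p = 0.0525). Bai1 Tg pos 1 was the lowest library of all 15 for both Pts and Spr (25.9 CPM). For Spr the difference was 0.01 on the log2 scale (SE 0.136, adjusted p = 0.998), and it turned to -0.05 (SE 0.146, adjusted p = 0.995) when Bai1 Tg neg 4 was left out.

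Of the recycling enzymes, Qdpr was well detected and Pcbd1 nearly absent. Qdpr (chromosome 5, 45434021 to 45450236), which reduces the quinonoid form back to the cofactor, stood at 53.7, 47.3, 47.8 and 47.5 CPM in Mertk KO 1 to 4 and at 53.3, 54.6, 56.0 and 56.4 CPM in Mertk WT 1 to 4. Mertk KO 2 to 4 lay below all Mertk WT libraries, while Mertk KO 1 lay above Mertk WT 1. The log2 fold change was -0.17 (SE 0.0801, adjusted p = 0.893). Between the Bai1 groups Qdpr overlapped, at 46.2 to 58.8 CPM in Bai1 Tg neg and 47.1 to 52.4 CPM in Bai1 Tg pos, with a log2 difference of -0.04 (SE 0.0986, adjusted p = 0.986), or -0.05 (SE 0.111, adjusted p = 0.994) leaving out Bai1 Tg neg 4.

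Pcbd1 (chromosome 10, 61089343 to 61094328), the dehydratase that acts before Qdpr and is also a dimerization cofactor of the transcription factor HNF1, held 85 counts over all 15 libraries. The Mertk WT libraries held 3, 2, 1 and 1 counts and the Mertk KO libraries 5, 5, 0 and 1, too few for the test. Counts were 6, 3, 1 and 8 in Bai1 Tg neg 1 to 4 and 12, 13 and 24 in Bai1 Tg pos 1 to 3. Every Bai1 Tg pos library (0.773 to 1.28 CPM) lay above every Bai1 Tg neg library (0.0710 to 0.462 CPM), a pattern found among 6.2% of the 13855 genes tested in either direction and 2.79% in this one. The log2 fold change was 1.92 (SE 0.739, adjusted p = 0.948; unadjusted p = 0.0204 from the same edgeR fit), so Pcbd1 did not pass. Leaving out Bai1 Tg neg 4 gave 2.17 (SE 0.836, adjusted p = 0.988), with Pcbd1 still apart between the groups, as were 10.3% of 13562 genes. Pcbd1 passed the filter on low counts through its Bai1 Tg pos libraries, which favours a gain in that group. The shares are therefore not a like comparison. Nothing is read from the separation, the fold change or the unadjusted p.

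Its paralog Pcbd2, a second dehydratase of the same kind, was present at a higher level. Pcbd2 was at 6.16 to 12.0 CPM, a median of 16.9 CPM per kilobase against 0.249 for Pcbd1, and at 89 counts or more in each library. It did not pass in Mertk KO (log2 fold change -0.15, SE 0.226, adjusted p = 0.937). The order of median levels per length over the 15 libraries was Pts (63.6), Spr (28.8), Qdpr (28.4), Gch1 (9.64), Gchfr (0.924) and Pcbd1 (0.249). The ranges of Spr (21.1 to 37.0) and Qdpr (25.9 to 32.9) overlapped, so this neighbouring pair did not differ beyond its spread.

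None of the 4 tested members other than Gchfr passed in Mertk KO, where 0.223% of all genes did, and none of the 5 tested in the Bai1 set passed, where 0.0144% of 13855 genes did (2 genes; 0.0369% of 13562 without Bai1 Tg neg 4). For Gch1, Pts, Spr and Qdpr, whose testing did not hang on 1 group, the median log2 fold change was -0.06 in Mertk KO, against -0.00097 over all genes tested. Between the Bai1 groups it was -0.15, against -0.0005, and -0.17, against 0.00083, leaving out Bai1 Tg neg 4. Unadjusted p under 0.05 was reached by 0 of these 4 in Mertk KO, where 5.58% of all genes did so. It was reached by 1 of 4 (Pts) between the Bai1 groups, where 5.18% did, and by 0 of 4 leaving out Bai1 Tg neg 4, where 4.35% did. DESeq2 and limma-voom called none of Gch1, Pts, Spr and Qdpr in either comparison, nor Pcbd1 between the Bai1 groups. The 2 genes called between the Bai1 groups became 1 without Bai1 Tg neg 1, 0 without Bai1 Tg neg 3, 5 without Bai1 Tg neg 4, Bai1 Tg pos 1 or Bai1 Tg pos 2, and 54 without Bai1 Tg pos 3, none of them a member.

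**Figure D3:**
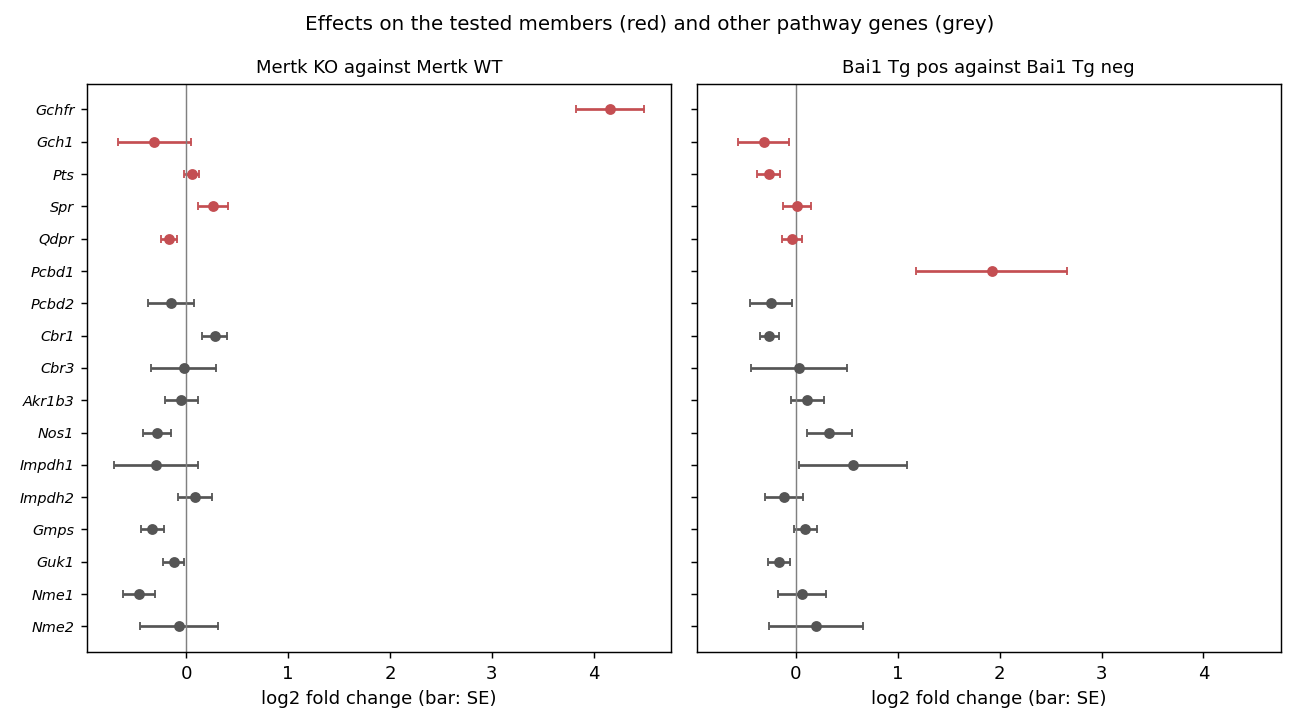
Log2 differences (x axis) between Mertk KO and Mertk WT (left) and between Bai1 Tg pos and Bai1 Tg neg (right) for the tested members in red and 11 of the 12 other tested pathway genes in grey (y axis), with bars for the SE. Gchfr, at 4.16 on the left, was chosen for that difference; the other left values lie between -0.47 and 0.28, and on the right Pcbd1, at 1.92, has the widest bar.

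Other genes around the pathway, 19 in all, were taken from a list of enzymes that use the cofactor, salvage and side reactions, and GTP supply. In Mertk KO 12 of them were tested and none passed edgeR (3 at unadjusted p under 0.05, against 5.58% of all genes), with a median log2 fold change of -0.14. Between the Bai1 groups 12 were tested and none passed edgeR (1 at unadjusted p under 0.05, against 5.18%), with a median of 0.04. Leaving out Bai1 Tg neg 4 gave no call, 1 of 12 at unadjusted p under 0.05, against 4.35%, and a median of 0.07.

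Among the 8 enzymes that use tetrahydrobiopterin, Nos1, the neuronal nitric oxide synthase, was the one detected well. It stood at 119, 97.3, 107 and 87.5 CPM in Mertk WT 1 to 4 and at 86.4, 83.7, 103 and 65.0 CPM in Mertk KO 1 to 4. The groups overlapped and the log2 fold change was -0.29 (SE 0.136, adjusted p = 0.893). Nos1 was at 63.2 to 90.8 CPM in Bai1 Tg neg and 66.4 to 125 CPM in Bai1 Tg pos (log2 fold change 0.33, SE 0.22, adjusted p = 0.958; 0.34, adjusted p = 0.988 leaving out Bai1 Tg neg 4). Per kilobase Nos1 had a median of 7.85 CPM, below that of Gch1 at 9.64. Nos1 shares exon bases with Gm26995, which reached at most 0.297 CPM.

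The others described here were at or near 0. Nos2, the inducible nitric oxide synthase, held no count in any library. Agmo, the alkylglycerol monooxygenase, held 1 count in all. Th, the tyrosine hydroxylase of catecholamine synthesis, held 13 counts over the 15 libraries, and the tryptophan hydroxylases Tph1 and Tph2 held 22 and 9. Nos3, the endothelial nitric oxide synthase, held 60 counts and reached 1.18 CPM in its highest library, and its exons overlap those of Atg9b and Gm15587.

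Of 5 genes of salvage and side reactions, none passed. Cbr1, a carbonyl reductase that can act on pterin intermediates, was at 60.2 to 91.5 CPM in Mertk WT and, overlapping with it, at 81.4 to 105 CPM in Mertk KO (log2 fold change 0.28, SE 0.123, adjusted p = 0.866). The Bai1 groups did not overlap for Cbr1 (nor, in this direction, for 3.41% of genes), at 58.0 to 74.6 CPM in Bai1 Tg pos and 75.9 to 86.1 CPM in Bai1 Tg neg, a log2 difference of -0.26 (SE 0.0926, adjusted p = 0.948) and -0.29 (adjusted p = 0.988) leaving out Bai1 Tg neg 4.

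All 6 genes of GTP supply were tested and none passed in either comparison. Their log2 differences in Mertk KO ran from -0.47 to 0.09, with 1 above 0, and 2 reached an unadjusted p under 0.05. In Mertk KO the log2 difference was -0.47 for Nme1, a nucleoside diphosphate kinase (SE 0.158, adjusted p = 0.638), -0.33 for Gmps, the GMP synthase (SE 0.115, adjusted p = 0.640), and -0.13 for Guk1, the guanylate kinase (SE 0.0997, adjusted p = 0.912). Impdh1, an inosine monophosphate dehydrogenase with a retinal form in photoreceptors, was uneven. It stood at 17.8, 55.3, 48.3 and 21.3 CPM in Mertk WT 1 to 4, at 18.5 to 36.8 CPM in Mertk KO and at 2.94 to 14.7 CPM in the 7 Bai1 libraries. Its highest libraries, Mertk WT 2 and 3, were also those with the highest summed rod markers (3419 and 2614 CPM). The part of rod transcripts in the Impdh1 level was not tested. The log2 fold change of Impdh1 in Mertk KO was -0.30 (SE 0.416, adjusted p = 0.936), and 0.26 (SE 0.146, adjusted p = 0.997) once rod marker level entered the model. That fit gave no test of the rod marker level itself.

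The neighbours of Gchfr on chromosome 2 were read next to it. Of the 5 nearest tested genes on either side, whose starts (lower coordinates) span -241.3 to 205.3 kb from that of Gchfr, edgeR called 1 higher, against 0.0595% of all genes, and none lower, against 0.164%. The groups did not overlap for 3 of the 10, against 3.52% of all genes (1.74% higher, 1.78% lower): Rmdn3 and Chst14, a dermatan sulfotransferase gene, higher, and Ccdc32 lower. Chst14 and Ccdc32 did not pass, with log2 differences of 0.51 (SE 0.164, adjusted p = 0.548) and -0.37 (SE 0.102, adjusted p = 0.412). An unadjusted p under 0.05 was reached by 4 of the 10 (2 above 0 and 2 below), against 5.58% of all genes, and DESeq2 and limma-voom called no neighbour lower. The gene called higher was Rmdn3, which lies at -30.8 kb and encodes a tether between mitochondria and endoplasmic reticulum. It shares exon bases with a gene on the opposite strand that is not reported here, and the counting did not use strand. Rmdn3 stood at 113 to 131 CPM in Mertk KO, 69.3 to 84.1 CPM in Mertk WT, 54.5 to 67.8 CPM in Bai1 Tg neg and 70.4 to 76.9 CPM in Bai1 Tg pos (log2 fold change 0.68 in Mertk KO, SE 0.0865, adjusted p = 0.00407). Dnajc17, whose end nearest to Gchfr lies just past it on the opposite strand, was at 4.96 to 8.74 CPM in Mertk WT, a range that held all of Mertk KO at 5.25 to 6.99 CPM (-0.16 on the log2 scale, SE 0.209, adjusted p = 0.93). Its exons share bases with those of Zfyve19, on the other strand, which reached at most 27.4 CPM. Over the 9 neighbours described here the median was -0.09, with 4 above 0 and 5 below, and their log2 fold changes ran from -0.37 (Ccdc32) to 0.68 (Rmdn3). The knockout allele and other alleles linked to it on chromosome 2 cannot be told apart in this design.

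**Figure D4:**
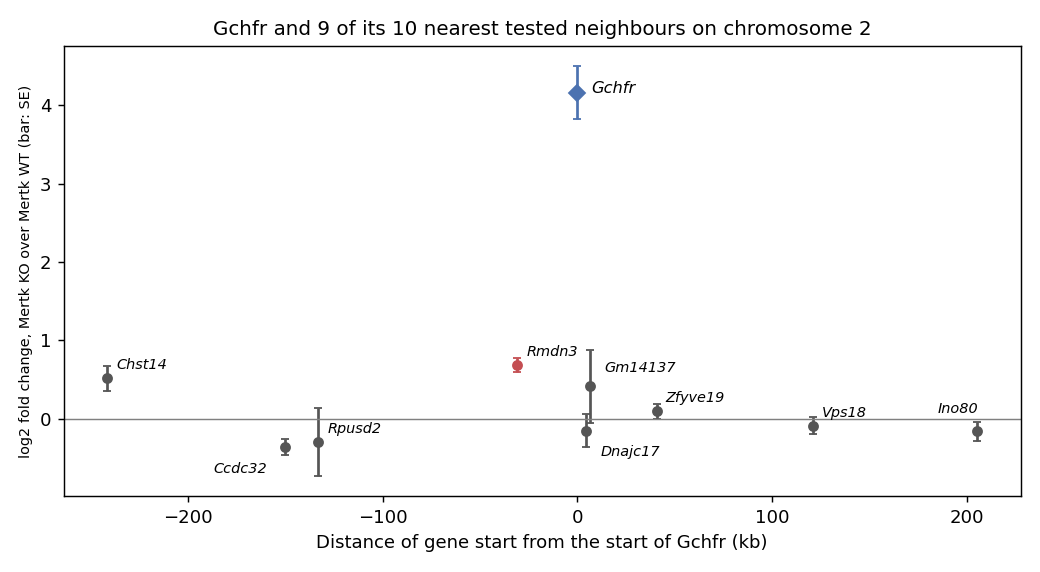
Log2 difference between Mertk KO and Mertk WT (y axis, bars for the SE) for Gchfr (diamond) and 9 of its 10 nearest tested neighbours against the distance of their starts from that of Gchfr in kb (x axis). Rmdn3, in red, passed an adjusted p of 0.05, and the grey points did not; the 9 neighbours lie between -0.37 and 0.68.

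The genes whose pattern over the 15 libraries was most like that of Gchfr were sought among 14520 genes, by the root mean square difference of log2 CPM after centring each gene on its mean. Because Gchfr was itself chosen for its higher level in Mertk KO, higher levels there in the genes most like it follow from the choice. They are given as a description only. Nearest was Gm3650, at 0.759 log2 units, and the next 4 included Gm23935 (1.41), Gm6583 (1.43) and Myh7b (1.44), against a median of 2.12 over all genes. Gm3650, a gene model on chromosome 18, held 2.36 to 3.11 CPM in Mertk KO and no count in any other library, so it passed the filter on low counts through Mertk KO alone. Gm23935 overlapped between groups, at 0.654 to 4.74 CPM in Mertk WT against 1.83 to 21.0 CPM in Mertk KO. Myh7b, a myosin heavy chain gene on chromosome 2, was at 1.12 to 1.88 CPM in Mertk KO and at most 0.993 CPM elsewhere. No member of the pathway was among the 5. This measure depends on the size of a change, and a gene at the same level in every library would stand 2.11 log2 units from Gchfr. Members with small differences could therefore not enter the 5 whether or not they varied with Gchfr, and nothing is read from their absence.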

How the data were processed

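RNA was sequenced from 15 RPE libraries. The kit was TruSeq with poly-A selection, per the labels' protocols. Alignment used STAR and GRCm38, per the submitters' processing notes. The deposited values are raw fragment counts per gene, made by the authors with featureCounts 1.5.0, per the file headers (both ends mapped, exons summed per gene, no strand option). Neither the version of STAR nor the annotation release is given in the sources used here. The count table's exon lengths, which the authors deposited beside the counts as another column, gave levels per kilobase.

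By Ensembl identifier, 45143 genes received a symbol (99.91% of counts). Levels are CPM with TMM factors over 15 libraries. Each comparison was tested within its own libraries with edgeR 4.0.16 in R 4.3.3 (TMM, filterByExpr, robust quasi-likelihood F test, two-sided, Benjamini-Hochberg over all genes tested, threshold 0.05), and the SE was derived from the F statistic. Any adjusted p with no tool named comes from it. The scripts were tested on simulated data. No 2 libraries of a group agreed within sampling noise (lowest chi-square per degree of freedom 5.03).

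The members and lists were chosen with earlier results of these data known. Named genes are the 6 members, the 19 listed pathway genes, the 5 tested genes on either side of Gchfr, the 5 genes most like Gchfr over 15 libraries (log2 CPM with a prior count of 2), and Mertk, Adgrb1 and Rpe65 as checks. Some genes these rules select are not reported here. Certain genes that share exons with the named ones are named for that reason, and some cell type markers are named with their levels. Alternatives used DESeq2 1.42.0, limma-voom (limma 3.58.1), RLE factors, library size alone, omission of the low-count filter, the replicate number, first tag number or rod marker level as a covariate, all 15 libraries in 1 fit, and each library left out. Promoter sequences are from RefSeq (GRCm38.p6), which matched 6 of 6 members. GENCODE M21 transcripts were compared by blastn 2.17.0.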

Additional observations from a re-analysis of the deposited data

Results flagged for a closer look

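Qdpr in Mertk KO 1 stood at 53.7 CPM, above the other 3 Mertk KO libraries at 47.3 to 47.8 CPM and within the range of Mertk WT and Bai1 libraries. From counting alone, its 95% interval (50.4 to 57.1 CPM) overlapped those of the other 3 (upper ends 50.9 to 51.5 CPM). The gap from Mertk KO 1 to the nearest library was 0.922 of the group's whole range, above Dixon's limit for 4 samples. Chance alone marks about 1 group in 20 in this way.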

How the results depend on the processing

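The log2 fold change of Gchfr in Mertk KO stayed between 3.85 and 4.50 over 17 alternatives, and none of Gch1, Pts, Spr, Qdpr or Nos1 passed in any of them. Rmdn3 passed in all 17 (adjusted p from 4.34e-09 to 0.0229). Of all genes, 74 passed in Mertk KO with DESeq2 and 69 with no low-count filter, against 30, and 16 to 31 with 1 library left out. In the Bai1 set, where 2 passed, 25 passed with DESeq2, 85 with no low-count filter, 4 with the replicate block, 1 with the rod covariate, 0 with all 15 libraries or limma-voom, and 0 to 54 with 1 library left out. Impdh1 in Mertk KO turned to 0.26 with the rod covariate. In the Bai1 set Spr, near 0, turned to -0.0026 with library size alone, -0.0663 with the replicate block and ran from -0.10 to 0.16 with 1 library left out, and Qdpr turned to 0.0321 with limma-voom and ran from -0.0917 to 0.0323. The causes were not tested.

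With the replicate number as a block, 24 genes passed in Mertk KO. Deviations of libraries that share a number correlated at -0.114, -0.0298, 0.151 and 0.236 in the Mertk set and between -0.00449 and 0.0142 in the Bai1 set. The main test therefore did not take the numbers as pairs. In the Mertk set, libraries of the same number do have adjacent second tags (29 and 30, 5 and 4, 6 and 7, 4 and 3), so a pairing remains possible. With the block, Gch1 in Mertk KO was at -0.25 (SE 0.172, edgeR adjusted p = 0.886), against an SE of 0.357 without it. The SE of Pts and Qdpr rose to 0.0796 and 0.0881. Of 8 Mertk libraries 4, and of 6 Bai1 libraries 1, correlated best with their own number. Depth limits Pcbd1 in every library and Gchfr outside Mertk KO, where 0 to 18 counts were found.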
